A study of Schizosaccharomyces pombe with 8 samples.

Results

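Long non-coding RNAs of the fission yeast Schizosaccharomyces pombe were examined in RNA that coprecipitated with Lsm8, a subunit of the Lsm2-8 complex. The genes described here are those with an SPNCRNA identifier, the series of names given to non-coding RNAs in this yeast, that had reads in both libraries of a RIP-Seq experiment and at least 100 reads in the control library. Of the 1535 SPNCRNA genes among the 7014 genes listed, 1216 had reads in both libraries and 164 met this limit. SPNCRNA.214 (ter1, the telomerase RNA) and SPNCRNA.499 (a small nucleolar RNA) were left out, which leaves 162. The genes were thus chosen by their control reads, which also form the denominator of the ratios below, so these ratios are a description and carry no test.

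RNA-Seq of cells grown in YES medium compared 3 libraries of strain PP138 (pof8+) with 3 libraries of strain PP1723, in which pof8 was replaced by kanMX6. Both strains carry the same ade6-M216, leu1-32, ura4-D18 and his3-D1 alleles, so these are shared by all RNA-Seq groups. RIP-Seq compared 1 library from an immunoprecipitation (IP) of Lsm8 tagged with 13 Myc epitopes with 1 library from a control IP. The tagged strain was PP585 (lsm8-myc13 with the natMX6 marker), which the paper lists with the same ade6, leu1, ura4 and his3 alleles. The sources used here do not name the strain of the control IP. Each IP had 1 library, so the ratios compare these libraries and have no replicate check.

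Lsm2-8 is a ring of Sm-like proteins in the nucleus that binds RNAs ending in a run of uridines, and its best known partner is the U6 spliceosomal RNA. In fission yeast it also binds mature telomerase RNA and protects its 3′ end. Many long non-coding RNAs of this yeast are transcribed from the strand opposite a protein-coding gene, and much of this antisense RNA is held at low levels by nuclear degradation. A few have well-known roles of their own, such as the RNA subunits of RNase P and of the signal recognition particle.

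The Lsm8 IP held 6604836 reads assigned to genes, of which 70.6% fell in snRNA genes. For the control IP 942080 reads could be worked back, of which 2.62% fell in snRNA genes. This sum leaves out 98 genes that had no Lsm8 IP read. The 162 long non-coding RNAs held 1.84% of the Lsm8 IP reads and 8.05% of these control IP reads. Read counts were divided by the median over genes with reads (108 for the Lsm8 IP, 43 for the control IP) to give normalized counts, and the ratio is the normalized count in the Lsm8 IP over that in the control IP. A ratio of 1 therefore refers to the typical gene and not to the total RNA recovered. Ratios are followed in parentheses by 95% intervals (exact, Clopper-Pearson), which take in no error other than that of counting. Reads were unstranded and were counted without regard to strand, so a read in an antisense pair counts for either gene. Fewer bound molecules and less RNA of a gene in the extract could not be told apart.

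The ratios of the long non-coding RNAs lay, as a group, near those of other genes with as many control reads. Their median ratio was 0.685, with a range from 0.0553 to 2.82, beside a median of 0.671 for the 1401 other genes with at least 100 control reads. Of the 162, 3 had a ratio above 2, a share of 1.85%, whereas 15.9% of all 6323 genes with reads in both libraries and 3.93% of the 1401 other genes lay above 2. A ratio below 0.5 was found for 54 of the 162, or 33.3%, beside 16.5% of all genes and 28.8% of the other genes with at least 100 control reads. Among the 496 protein-coding genes with as many control reads that overlap no other listed gene, 3.23% lay above 2 and 41.1% below 0.5, with a median of 0.574. The remaining 105 long non-coding RNAs lay between 0.5 and 2. The counting interval lay wholly above 2 for 3 (1.85%, beside 2.86% of the 1401 other genes) and wholly below 0.5 for 40 (24.7%, beside 18.3%). It lay wholly below 1 for 109 (67.3%, beside 64.7%) and wholly above 1 for 23 (14.2%, beside 14.6%). The number above 2 depends on the choice by control reads. Chosen by the mean of both libraries instead, 19 of 163 long non-coding RNAs lay above 2, beside 9.4% of 1351 other genes chosen in the same way. That choice takes in the Lsm8 IP reads, the numerator of the ratio, so it lets in genes through high Lsm8 IP reads.

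The ratio was lower where the control IP held more reads, in long non-coding RNAs and in protein-coding genes alike. With 100 to under 200 control reads, the median was 0.771 for 86 long non-coding RNAs and 0.772 for 750 other genes. With 200 to under 400 control reads, it was 0.653 for 33 long non-coding RNAs and 0.652 for 295 other genes, and with 400 or more it was 0.476 for 43 and 0.484 for 356. Single genes varied widely, with quartiles of 0.534 and 0.920 for the long non-coding RNAs in the lowest range. Protein-coding genes that overlap no other gene had lower medians of 0.708, 0.549 and 0.401 in the same ranges. Below the limit the course was the same, with medians of 1.99, 1.23 and 0.906 for SPNCRNA genes with 1 to 9, 10 to 29 and 30 to 99 control reads, and of 1.84, 1.22 and 0.898 for protein-coding genes. Control reads are also the denominator of the ratio, and their part in this course was not tested.

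**Figure D1:**
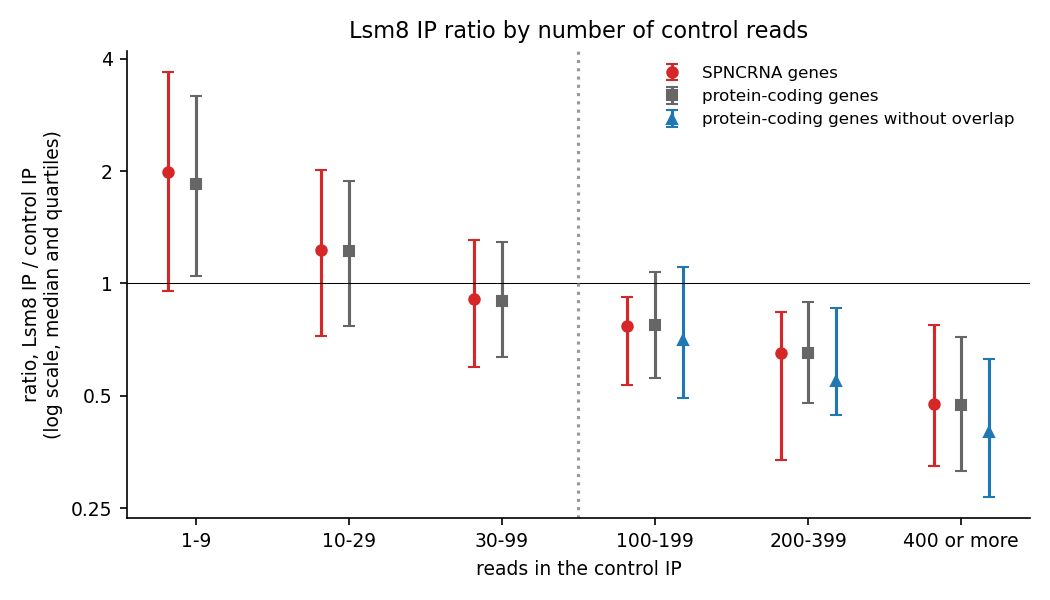
Ratio of normalized counts in the Lsm8 IP over the control IP (log scale) by number of control reads, as medians with quartiles, for SPNCRNA genes, protein-coding genes and protein-coding genes that overlap no other gene. The dotted line marks the limit of 100 control reads; medians of SPNCRNA genes go from 1.99 in the lowest range to 0.476 in the highest, next to those of protein-coding genes.

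The genes at the limit were not unusual. Just inside it, SPNCRNA.1252 had 100 control reads and a ratio of 0.741, SPNCRNA.1655 had 101 and 0.922, and SPNCRNA.769 had 103 and 0.924. Just outside it, SPNCRNA.1575 and SPNCRNA.1620 each had 99 control reads, with ratios of 0.615 and 0.989, and SPNCRNA.712 had 98 and 1.09.

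**Figure D2:**
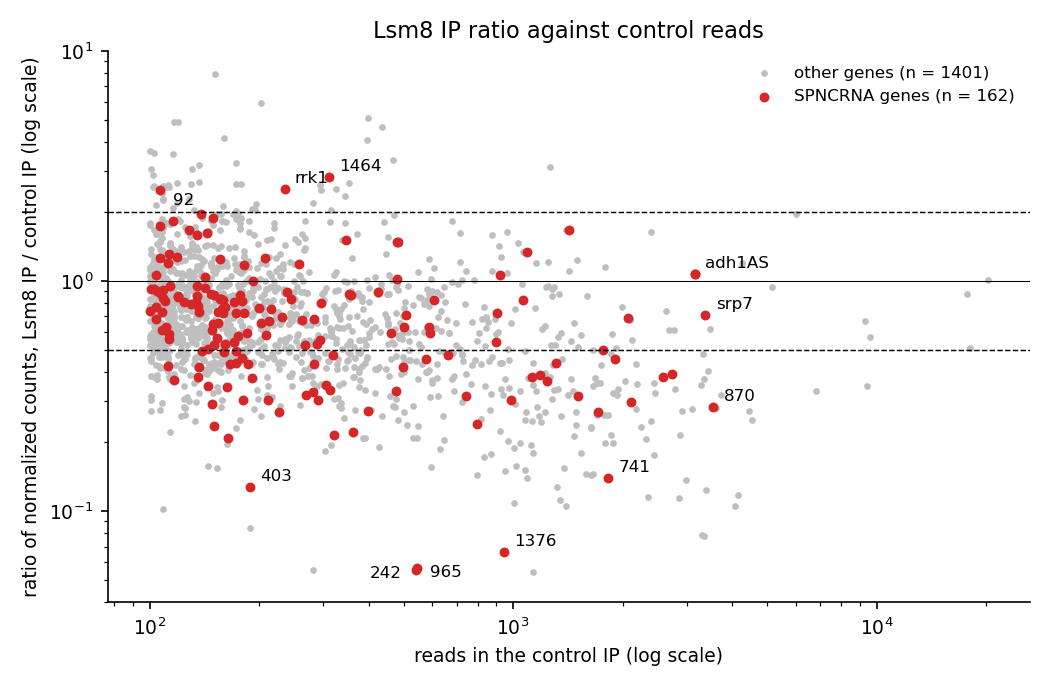
Ratio of normalized counts in the Lsm8 IP over the control IP (log scale) against control reads (log scale) for 162 SPNCRNA genes (red) and 1401 other genes with at least 100 control reads (grey, of which 6 with a ratio above 10 lie off the axis). Dashed lines mark ratios of 0.5 and 2; 3 SPNCRNA genes lie above the upper line and 54 below the lower line, and numbers stand for SPNCRNA identifiers.

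The RNAs above 2 were SPNCRNA.1464, rrk1 and SPNCRNA.92. SPNCRNA.1464 had 2205 Lsm8 IP reads and 311 control reads, a ratio of 2.82 (2.51 to 3.19). It lies opposite rps1402, which encodes a protein of the small ribosomal subunit and which had 3064 and 1292 reads and a ratio of 0.944. The antisense gene thus had fewer reads than rps1402 in both libraries but stood higher in the Lsm8 IP relative to the control IP. SPNCRNA.1464 was also the only long non-coding RNA of the 162 that combined a ratio above 2 with a difference of at least 10 normalized counts, here 13.2.

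The RNA component of RNase P, rrk1 (SPNCRNA.128), had 1481 Lsm8 IP reads and 235 control reads, a ratio of 2.51 (2.19 to 2.89). RNase P removes the 5′ leader of precursor tRNAs. The gene on the opposite strand, pre10, encodes a subunit of the 20S proteasome and had 250 and 182 reads and a ratio of 0.547. SPNCRNA.92 had 664 and 107 reads and a ratio of 2.47 (2.01 to 3.06), whereas pma1 opposite it, which encodes the plasma membrane proton pump, had 5154 and 1787 reads and a ratio of 1.15. These 3 ratios stayed above 2 when the deposited medians were used, but scaling to total reads gave 1.01 for SPNCRNA.1464, 0.899 for rrk1 and 0.885 for SPNCRNA.92.

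The next 7 RNAs had ratios from 1.62 to 1.95, and each had an interval above 1. SPNCRNA.1140, opposite the phosphoglycerate dehydrogenase gene ser3 (0.940) and aph1 (1.56), had 677 Lsm8 IP reads and 138 control reads and a ratio of 1.95. SPNCRNA.865 had 700 and 149 reads and a ratio of 1.87, next to 2.02 for the protein-coding gene SPAPB24D3.07c opposite it. SPNCRNA.1031 had 528 and 116 reads and a ratio of 1.81, close to the 539 and 125 reads of wsp1, which encodes a WASP-family regulator of actin assembly and had a ratio of 1.72. It also overlaps SPNCRNA.1030 (0.459) and SPAC4F10.16c (1.06). Each of these non-coding RNAs thus overlaps at least 1 gene with a ratio above 1.5, and SPNCRNA.1140 and SPNCRNA.1031 overlap lower genes as well.

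SPNCRNA.1635 had 535 Lsm8 IP reads and 128 control reads, beside 536 and 128 for did2, a gene of endosomal sorting. SPNCRNA.793, annotated as obr1-antisense-1, had 5943 and 1423 reads and a ratio of 1.66, and obr1 had 5834 and 1401 reads and a ratio of 1.66. SPNCRNA.1208 had 467 and 107 reads, near the 417 and 104 of snp27, and SPNCRNA.897 had 585 and 144 reads and a ratio of 1.62, beside 2.70 for SPAC6G9.01c, a gene it overlaps.

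At the other end, SPNCRNA.242 and SPNCRNA.965 had the lowest ratios, 0.0553 (0.0428 to 0.0705) and 0.0563 (0.0437 to 0.0715). SPNCRNA.242 had 75 Lsm8 IP reads and 540 control reads, and SPNCRNA.965 had 77 and 545. They lie on opposite strands of the same place and overlap no other placed gene, so their nearly equal counts are 1 observation rather than 2. In 4 places in all, a pair among the 162 overlapped each other.

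SPNCRNA.1376 had 157 Lsm8 IP reads and 943 control reads, a ratio of 0.0663 (0.0556 to 0.0786). The gene opposite it, tef103, encodes translation elongation factor EF-1 alpha and had 3871 and 1999 reads and a ratio of 0.771, and the counting intervals of the pair were far apart. SPNCRNA.957, opposite the paralog tef102, had 751 and 985 reads and a ratio of 0.304, beside 0.873 for tef102. It also lies opposite SPAC23A1.09, from which its ratio differed by less than 2-fold (0.78 on the log2 scale). As tef102 and tef103 are paralogs, their counts are given as uncertain, and the effect of this on them was not tested. SPNCRNA.957 was chosen after its values were seen.

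SPNCRNA.403 had 60 and 189 reads and a ratio of 0.126, below the 0.580 of SPNCRNA.1539 opposite it, which had 83 and 57 reads. SPNCRNA.741 had 635 and 1827 reads and a ratio of 0.138, and rpl2001 opposite it, a gene of the large ribosomal subunit, had 1482 and 2395 reads and a ratio of 0.246. Here the antisense gene was lower than an already low coding gene.

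The other 5 of the lowest 10 had ratios from 0.206 to 0.239. SPNCRNA.576 had 201 Lsm8 IP reads and 362 control reads, exactly the counts of qrs1 opposite it. SPNCRNA.1305 had 85 and 164 reads, beside 80 and 163 for SPBPB21E7.08. SPNCRNA.1487 overlaps the small nucleolar RNA snR92, and their reads were 173 and 321 for SPNCRNA.1487 and 139 and 304 for snR92. SPNCRNA.1487 also overlaps mag2, which had 34 and 16 reads and a ratio of 0.846. SPNCRNA.576 and SPNCRNA.1305 thus had nearly the counts of a low overlapping gene. SPNCRNA.1487 had more reads than the low snR92, 173 against 139 in the Lsm8 IP. For all 3, which strand the reads came from could not be told apart.

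SPNCRNA.1448 had 478 and 795 reads and a ratio of 0.239, beside 0.437 for sua1, the sulfate adenylyltransferase gene. It also overlaps mep33, with 130 and 73 reads and a ratio of 0.709, and SPNCRNA.358, with 0 Lsm8 IP reads. SPNCRNA.923, opposite the copper transporter subunit gene ctr5, had 88 and 150 reads and a ratio of 0.234, beside 523 and 261 reads and a ratio of 0.798 for ctr5. Only SPNCRNA.923 of these 5 was more than 2-fold below every gene it overlaps.

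**Figure D3:**
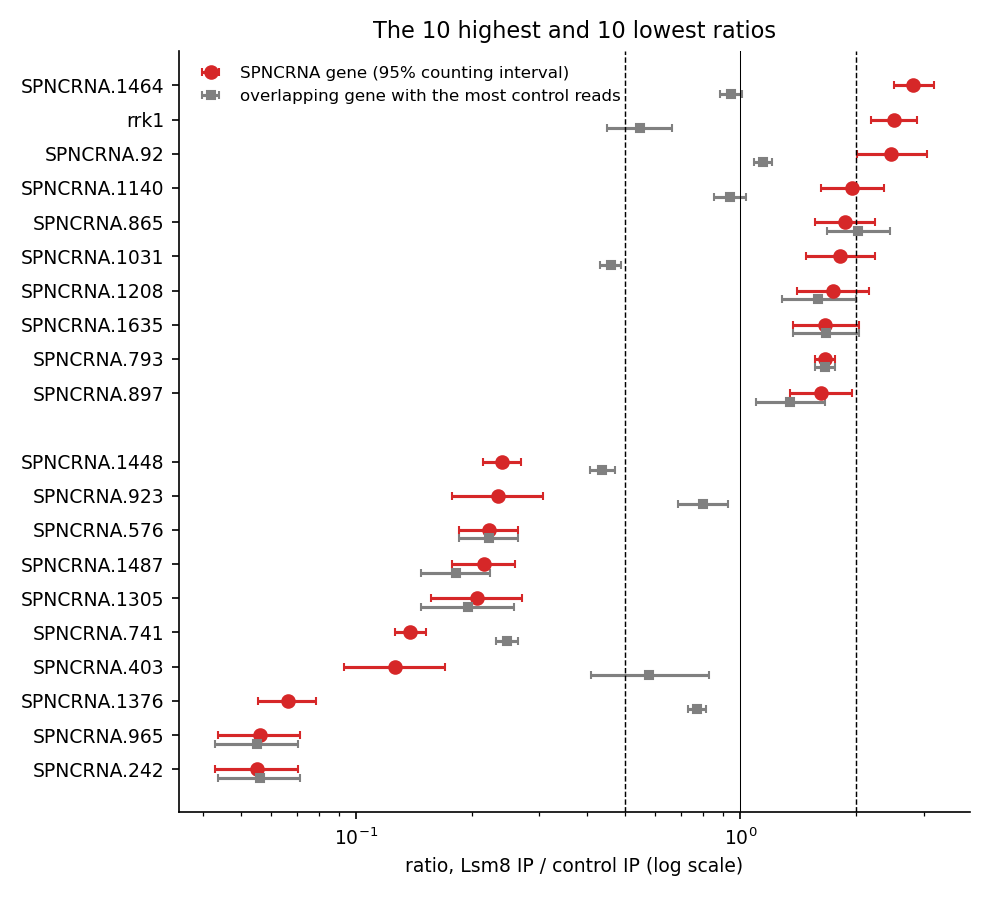
Ratios (log scale) of the 10 highest and the 10 lowest of the 162 SPNCRNA genes (red, with 95% counting intervals) and of the overlapping gene with the most control reads (grey squares). SPNCRNA.1464, rrk1 and SPNCRNA.92 lie above 2 while the genes opposite them lie between 0.547 and 1.15; SPNCRNA.242 and SPNCRNA.965 overlap each other.

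The RNAs with a known role or an earlier name fell on either side of 1. The RNA of the signal recognition particle, srp7 (SPNCRNA.98), which directs ribosomes to the endoplasmic reticulum, had 6024 Lsm8 IP reads and 3377 control reads and a ratio of 0.710 (0.681 to 0.741). It is 1 of 2 placed long non-coding RNAs for which no overlap with another placed gene was found. Overlap with genes that could not be placed was not checked. The other, SPNCRNA.1490, had 1784 and 482 reads and a ratio of 1.47. SPNCRNA.514, which could not be placed in the reference annotation, had almost the same reads, 1777 and 480. Whether SPNCRNA.1490 and SPNCRNA.514 share reads could not be told.

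The RNA antisense to the alcohol dehydrogenase gene, adh1AS (SPNCRNA.2001), had 8492 Lsm8 IP reads and 3167 control reads and a ratio of 1.07. The counts were 8510 and 3170 for adh1 itself, 8492 and 3167 for SPCC13B11.02c and 8491 and 3166 for SPNCRNA.2002, which was not placed. The reads of these 4 entries are nearly identical in number, so the value of adh1AS cannot be told apart from that of adh1. The RNA prl53 (SPNCRNA.53) had 1231 and 479 reads and a ratio of 1.02, like the 1233 and 481 reads of SPAC27E2.11c on the same strand. The RNA prl25 (SPNCRNA.25), opposite the ATP synthase gene atp7, had 108 and 148 reads and a ratio of 0.291, beside 111 and 157 for atp7.

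Of the 5 RNAs with the most control reads, those other than srp7, adh1AS and SPNCRNA.2002 lay opposite ribosomal protein genes. SPNCRNA.870 had 2518 Lsm8 IP reads and 3550 control reads and a ratio of 0.282, beside 1992 and 2912 reads for rps1101. It also overlaps lys12, with 1148 and 695 reads and a ratio of 0.658. SPNCRNA.1465 had 2696 and 2735 reads and a ratio of 0.392, beside 2690 and 2734 for rps1601. In all, 12 of the 162 overlapped a ribosomal protein gene, with a median ratio of 0.316, and 11 of these lay below 0.5. The exception was SPNCRNA.1464. The ribosomal protein genes themselves behaved alike, with a median of 0.331 over the 129 that had at least 100 control reads and 93 of them below 0.5. The 148 placed long non-coding RNAs that overlap no ribosomal protein gene had a median of 0.711. The 2 groups were not matched on control reads, and most of the 12 had 400 or more. With 400 or more control reads, 53.5% of long non-coding RNAs and 51.7% of other genes lay below 0.5. Their medians were 0.476 and 0.484. How much of the low median of the 12 goes with their control reads was not tested. This grouping was chosen after the values were seen.

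Nearly all of the 162 genes share their place with another gene. Of the 160 that could be placed, 158 (98.8%) overlapped another listed gene, and 153 overlapped a protein-coding gene on the opposite strand. Of the other genes with at least 100 control reads that could be placed, 877 of 1390 (63.1%) overlapped a listed gene. In 66 of the long non-coding RNAs, the reads of both libraries came within 10% of those of an overlapping gene. The 66 had a median ratio of 0.685, and the 92 that overlap a gene without such a match had 0.651. The 82 that overlap 1 gene had a median of 0.593 and the 76 that overlap more had 0.743.

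The ratio of a long non-coding RNA was often near that of the gene it overlaps, with which it can share reads. Against the overlapping gene with the most control reads, 106 of 158 lay within 1.2-fold and 14 differed by more than 2-fold. Without the 66 that match a gene within 10%, these numbers were 43 and 12 of 92. Pearson's r of the log2 ratios was 0.742 and Spearman's rho 0.770 across these 158 pairs, which share reads by the way they were counted. Among the 92 without a match within 10%, r was 0.559 and rho 0.661. Of the 54 long non-coding RNAs below 0.5, 42 overlapped such a gene that was below 0.5 as well, and without the 66 this held for 20 of 32. Of the 1401 other genes with at least 100 control reads 28.8% lay below 0.5, and 51.7% of those with 400 or more. Pairs without a match within 10% can still share reads, so these counts are no test of a link.

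**Figure D4:**
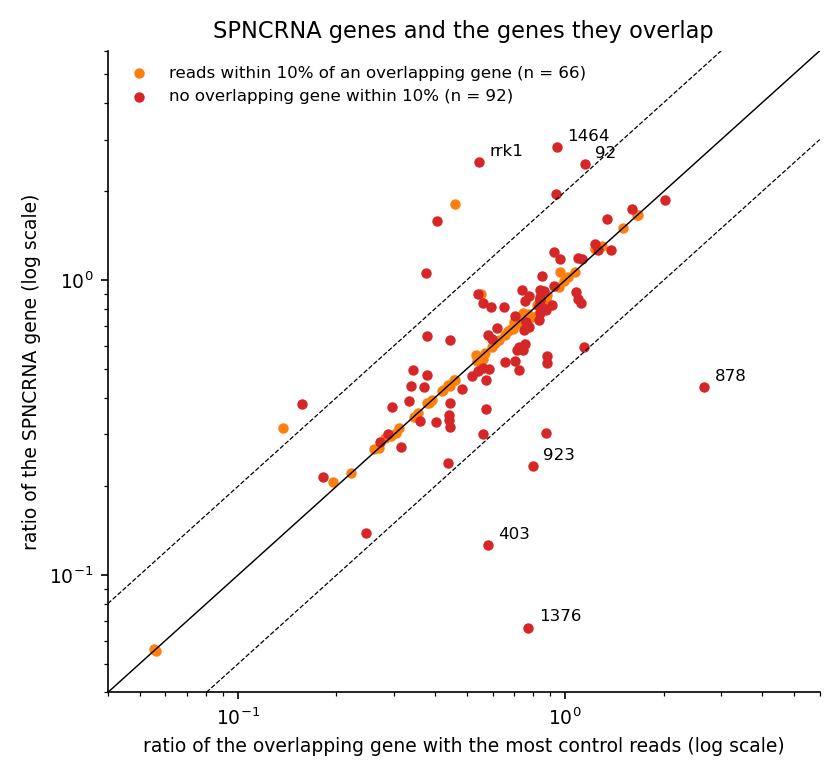
Ratio of 158 SPNCRNA genes against the ratio of the overlapping gene with the most control reads (both on log scales), for 66 whose reads came within 10% of those of an overlapping gene (orange) and 92 without such a match (red). The solid line marks equal ratios and the dashed lines a 2-fold difference; 106 genes lie within 1.2-fold of the solid line, and the 7 labelled genes differ by more than 2-fold from every gene they overlap.

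Some genes departed from all of the genes they overlap. In all, 7 differed by more than 2-fold from every overlapping gene with at least 10 control reads. SPNCRNA.1464, rrk1 and SPNCRNA.92 were higher. SPNCRNA.1376, SPNCRNA.403, SPNCRNA.923 and SPNCRNA.878 were lower. SPNCRNA.878 had 309 and 283 reads and a ratio of 0.435, whereas mvd1 opposite it, a gene of the mevalonate pathway, had 2367 and 354 reads and a ratio of 2.66. SPNCRNA.878 was named after its values were seen, and reads that overlap both genes of a pair can still enter each of these counts.

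RNA-Seq counts of the pof8+ and pof8 deletion libraries were available for 40 RNAs, among them SPNCRNA.1464, SPNCRNA.793 and obr1. These libraries were stranded, and their totals ranged from 49448968 to 72951191 reads. Counts were tested with edgeR's quasi-likelihood test and Benjamini-Hochberg adjustment over the 40 RNAs, and a call required an adjusted p-value under 0.05 together with a log2 fold change beyond 1 in either direction. The labels do not say whether the libraries of a group came from separate cultures, so p-values measure the spread between libraries. Counts for pof8 itself are not analysed here, so the deletion was not checked on the deleted gene. The comparison asks whether RNA levels change in cells without Pof8, a protein that binds telomerase RNA.

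Neither long non-coding RNA passed the test. SPNCRNA.1464 had 98, 130 and 195 reads in the pof8+ libraries and 110, 169 and 230 in the pof8 deletion libraries. Scaled to the library totals (CPM), these were 1.95, 2.16 and 3.94 against 1.73, 2.70 and 3.15 CPM, so the groups overlapped. Its log2 fold change (pof8 deletion over pof8+) was -0.078 (standard error 0.252, 95% interval -0.61 to 0.45, edgeR adjusted p = 0.858). The interval excludes a 2-fold change in either direction but not smaller ones.

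SPNCRNA.793 had 9.25, 10.5 and 13.3 CPM in the pof8+ libraries and 10.9, 12.7 and 10.7 CPM in the pof8 deletion libraries, and the groups overlapped. Its log2 fold change was 0.059 (standard error 0.156, 95% interval -0.27 to 0.39, adjusted p = 0.858 from the same edgeR test). Of the 40 RNAs, 2.5% were called lower, which is 1 RNA, ter1. Of the long non-coding RNAs, 0 of 2 were called by edgeR or by DESeq2, and 0 of 2 had an unadjusted p-value below 0.05, beside 5 lower and 2 higher of the 40 RNAs. The value of SPNCRNA.1464 became 0.30 without pof8+ replicate 3 and 0.13 without pof8 deletion replicate 1, and that of SPNCRNA.793 became -0.051 without pof8+ replicate 1 and -0.024 without pof8 deletion replicate 2.

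The sense gene obr1 had 857, 962 and 981 CPM in the pof8+ libraries and 736, 677 and 694 CPM in the pof8 deletion libraries. Every pof8 deletion library was below every pof8+ library, as for 8 of the 40 RNAs. Its log2 fold change of -0.41 (edgeR adjusted p = 0.00457, standard error 0.092) was below the size needed for a call. Because these libraries kept strand, they also show how the reads of this place divide between the strands. In RPKM, which also divides by gene length, SPNCRNA.793 (2324 bp) stood between 3.98 and 5.73 and obr1 (957 bp) between 707 and 1025, so that obr1 was 129 to 225 times higher per length in the 6 libraries. In the unstranded RIP-Seq the same pair had nearly equal counts, 5943 and 5834 in the Lsm8 IP.

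**Figure D5:**
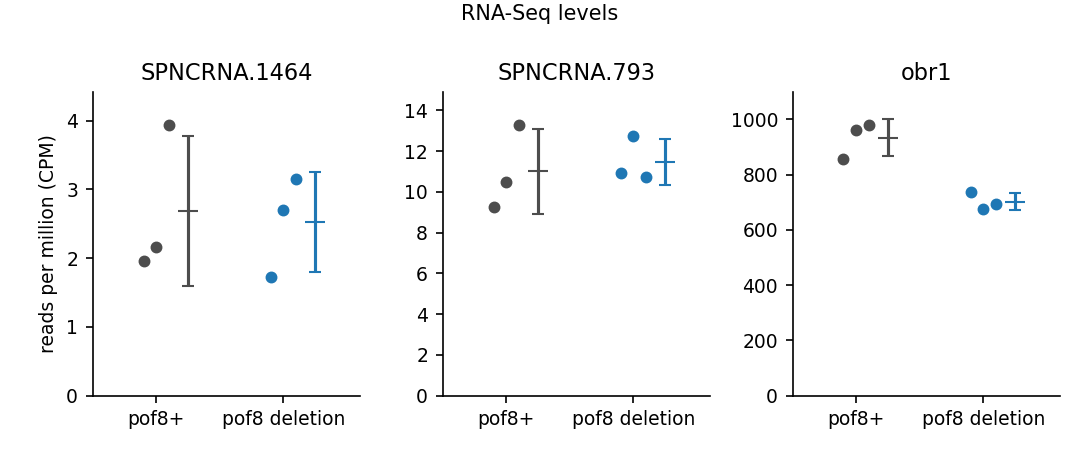
RNA-Seq levels in CPM of SPNCRNA.1464, SPNCRNA.793 and obr1 in 3 pof8+ and 3 pof8 deletion libraries (points), with the mean and SD beside them. The groups overlap for both SPNCRNA genes and do not overlap for obr1, which goes from 934 to 702 CPM on average.

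Other long non-coding RNAs that the study lists from its RNA-Seq are described by their RIP-Seq reads alone, since their RNA-Seq counts are not analysed here. SPNCRNA.716 had 381 and 119 reads and a ratio of 1.27 (1.03 to 1.58), near the 352 and 114 reads of SPAC56F8.12 opposite it. SPNCRNA.690 had 339 and 107 reads and a ratio of 1.26 (1.01 to 1.58), beside 1.38 for prh1. SPNCRNA.888 had 252 and 124 reads and a ratio of 0.809 (0.650 to 1.01), beside 0.650 for the endocytosis gene end4. All 3 lay between 0.5 and 2, near the genes they overlap.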

How the data were processed

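RIP-Seq reads were aligned by the authors to ASM294v2 with STAR 2.5.2b and counted per gene without regard to strand. The paper states that only uniquely mapped reads were counted. The effect of this on genes with paralogs, among them ribosomal protein genes, was not tested. Deposited by the authors were a signal, in which each count is divided by the library median, and its ratio to the control IP. Whole reads were worked back from both. For genes with no Lsm8 IP read the control reads are lost, and these 98 genes were taken as lying below the control median. The authors deposited RNA-Seq counts for 40 RNAs without normalization and an average RPKM, from which library totals were worked back. The same table holds the authors' own fold changes and p-values, which were not used. TMM factors over all genes could not be computed, so totals alone scaled the counts. Counts were fitted with edgeR 4.0.16 in R 4.3.3, with DESeq2 1.42.0 as an alternative. The edgeR fit and the intervals were tested on simulated data. Names, classes and overlaps (at least 1 base) came from ASM294v3, in which 6845 of the 7014 genes were found. Overlaps were sought among these 6845 genes only, so genes described as without overlap may still overlap an unplaced gene. Positions and strands of ASM294v3 served only to find overlaps and none are printed. Other steps used Python 3.11.15 with pandas 2.3.3, NumPy 2.4.6, Matplotlib 3.10.9 and SciPy 1.17.1. Members, named genes (the 10 highest and lowest ratios, the 5 with the most control reads, known RNA names, RNAs with RNA-Seq counts or listed by the study, and those next to the limit) and all lists were chosen with earlier results of these data known.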

Additional observations from a re-analysis of the deposited data

How the results depend on the processing

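Scaling sets what a ratio of 1 means. Total reads shifted the median log2 ratio of all genes by -1.48 and total reads without snRNAs by 0.25; both act on every gene alike. With total reads, 0 of the 162 lay above 2, beside 0.571% of other genes with as many control reads. Below 0.5 lay 148 of the 162 (91.4%), beside 90.1% of these other genes. The median of the 162 was 0.245 and that of the other genes 0.240. With this scaling rrk1 and SPNCRNA.92 turned to 0.899 and 0.885. Without snRNAs, 7 lay above 2 (6.5% of other genes) and 38 below 0.5 (18.6% of other genes), with medians of 0.812 and 0.796. A pseudocount of 1 normalized count gave medians of 0.729 for the 162 and 0.730 for the other genes. It left 39 of the 162 below 0.5, beside 4.79% of all genes, where it pulls genes with few reads toward 1. A minimum of 50 control reads gave 15 above 2 and 91 below 0.5 of 334 (4.77% and 22% of other genes). A minimum of 200 gave 35 below 0.5 of 76, beside 41.6% of other genes, and a median of 0.547. Chosen by the mean of both libraries, which takes in the numerator of the ratio, 19 of 163 lay above 2, beside 9.4% of other genes. Their median was 0.758 (other genes 0.780). The 2 that overlap no other placed gene gave 0 above 2, 0 below 0.5 and a median of 1.09. Leaving out those that share reads, added after seeing the data, gave 32 below 0.5 of 96 (33.3%, beside 28.8% of other genes). Protein-coding genes without overlap, also added then, had a median of 0.574. At a limit of 1.5-fold, 11 of the 162 were above and 78 below. The share of other genes at this limit was not computed, so these counts are not compared. In RNA-Seq, TMM and DESeq2 scaling turned SPNCRNA.1464 to 0.030 and 0.022 on the log2 scale, and with 1 library left out it ranged from -0.28 to 0.30 and SPNCRNA.793 from -0.051 to 0.21. Their adjusted p-values ranged from 0.261 to 0.957 over all fits. In the fit that took the replicate number as a block, they were -0.066 and 0.070, with 0 of 2 called. Deviations of same-numbered libraries from their group means correlated at 0.335, -0.677 and 0.199. With 3 libraries per group such deviations depend on one another, so whether the numbers mark pairs was not decided. The causes of these shifts were not tested, and 1 library per IP limits every ratio.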
